A study of Mus musculus with 6 samples.

Results

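Gene expression in multipotent progenitors (MPPs) was compared between mice lacking Bmi1 and wild-type mice on 3 dual-colour oligonucleotide arrays, out of 6 in the study. The 3 members were chosen by their titles, MPP replicates 1 to 3, hereafter MPP 1, MPP 2 and MPP 3; the other 3 arrays held hematopoietic stem cells (HSCs) of the same genotypes. On every array the red channel (Cy5) carried RNA labelled Bmi1 KO and the green channel (Cy3) RNA labelled wild type (WT). All mice had a C57BL6 background and were 2 to 3 months old, no treatment is named, and the cells of both genotypes were sorted by FACS. The labels call the replicates biological, but do not name the part of Bmi1 that was deleted, the sorting markers, or how many animals went into a sample. The p-values therefore measure the spread between samples within a population, pooled over the MPP and HSC arrays, whatever its source.

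MPPs are the first descendants of HSCs: they no longer sustain themselves for life but can still form all blood lineages, and some of them carry low levels of lymphoid transcripts before any lineage is fixed. Entry into the B lineage normally follows an ordered cascade. Tcf3 and Foxo1 induce Ebf1, Ebf1 induces Pax5, and these factors switch on the surrogate light chain, the signalling chains of the pre-B cell receptor and the recombinase that assembles immunoglobulin genes. Bmi1 is a subunit of Polycomb repressive complex 1, which keeps developmental regulators and the Cdkn2a locus silent in stem and progenitor cells.

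A ratio below is log2 of the KO over the WT signal on 1 array after background correction and normalization, so that 1 means a doubling in the KO channel. Each is given for MPP 1, MPP 2 and MPP 3 in that order, and a mean carries its standard error (SE) from a model fitted to all features on 6 arrays. As it pools the spread of both populations, an SE can be smaller or larger than the scatter of the 3 MPP ratios would give. Dyes were not exchanged on any array, so a dye effect particular to a probe cannot be told apart from genotype in a ratio. Such an effect cancels when the HSC ratio is subtracted only if it is equal in both populations, which was not tested. Of 29134 features, 0 passed at an adjusted p under 0.05 (0.00%; limma with Benjamini-Hochberg adjustment, smallest adjusted p 0.695). Without adjustment, 725 features were higher (2.49%) and 762 lower (2.62%) at a p under 0.05. This split became 2990 higher and 359 lower with median centring, in which the median of each array replaces the loess curve and the median over features went from 0.01 to 0.26. Values below are therefore called higher or lower as measured on these arrays, and none passed the test across all features. The 3 arrays were unequal: the ratios had an SD across features of 0.55 on MPP 1, 1.05 on MPP 2 and 0.93 on MPP 3. Across features, which are not independent replicates, r was -0.01 between MPP 1 and each of the others and 0.22 between MPP 2 and MPP 3. MPP 1 also shared a row of the slide with the HSC arrays, while MPP 2 and MPP 3 lay in another row. The median signal on the MPP arrays was 124 to 206 in green and 462 to 501 in red, and the number of arrays limits the precision. On these arrays 165 features were well above background in KO on 3 of 3 and in WT on none, against 6 the other way. Below, Lin28b, Postn and second probes of Cdkn2a and Rag2 have such a signal in KO alone, which was thus the commoner case.

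The sorted cells were checked against their label first. Flt3, the cytokine receptor that marks MPPs, had a WT level of 13.49, 13.71 and 13.45 on the log2 signal scale of the green channel and a KO level of 14.99, 14.94 and 14.56 on that of the red channel. Of 19 lymphoid priming genes 18 were well above background in WT on 3 of 3 arrays and 19 in KO. Of all 29134 features, 25173 were so in WT and 27806 in KO, so signal above background is a weak check of the label. The stem and progenitor markers Kit, Cd34 and Cd48, named here for this check only, were well above background in both channels on 3 of 3 arrays. Slamf1, a receptor that marks HSCs, was above background on 2 of 3 arrays in each channel. Bmi1 itself did not check the genotype, as neither of its probes had a negative mean. The labels do not name the deleted part, so whether its brighter probe (chr2:18607531-18607590, mouse assembly mm9) lies within it is not known. The reason for the missing decrease was not tested. Its ratios were 0.23, -0.69 and 0.48, with a mean of 0.01 (SE 0.47), and it was measured above background in the KO channel of every MPP array; a second probe gave 0.93, 0.70 and -0.05. KO status is thus taken from the labels.

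The paralogs of Bmi1 that can take its place in Polycomb complexes showed no common direction. Pcgf1, the subunit of the variant complex that carries Kdm2b, had ratios of 0.90, 0.90 and 0.26 (mean 0.69, SE 0.49), while Pcgf2, the closest relative of Bmi1, had -0.30, 0.11 and -0.16. Pcgf3, Pcgf5 and Pcgf6 had means of -0.74 (SE 0.54), -0.52 (SE 0.31) and -0.68 (SE 0.46). The value of Pcgf3 rests on MPP 2, at -2.12 against -0.08 and -0.03 on the other arrays, and its second probe had -0.33, 0.55 and -0.15 (mean 0.02). In HSCs Pcgf1 was on the other side of 0 on all 3 arrays, at -1.59, -3.60 and -1.11.

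The Ink4 inhibitors of the cyclin D kinases, which include the best known target of Bmi1, were all higher in the KO channel of MPPs. Cdkn2a, which encodes p16Ink4a and p19Arf (chr4:88920405-88920464, mm9), had ratios of 1.74, 0.61 and 1.19, a mean of 1.18 (SE 0.60). Cdkn2b, which encodes p15Ink4b, stood at 0.63, 0.86 and 0.38, and Cdkn2c, which encodes p18Ink4c, at 1.22, 0.35 and 0.13. Cdkn2d, which encodes p19Ink4d, had 0.06, 2.06 and 1.99, with WT above background on 1 of 3 arrays. Cdkn1a, a p53 target that encodes p21, was higher too, at 0.07, 0.37 and 0.90, with its other probes at means of 0.24 and 1.44. Cdkn1b and Cdkn1c, which encode p27 and p57 and hold stem cells in quiescence, were lower on 3 of 3 arrays, with means of -0.28 (SE 0.56; -1.62 on a second probe) and -0.50 (SE 0.31). Of these 7 inhibitors, 5 were positive on 3 of 3 arrays and 2 negative on 3 of 3, against 14.8% and 14.2% of all features. At unadjusted p under 0.05 there were 0, beside 2.49% higher and 2.62% lower of all features. The list median was 0.57 in MPPs and 0.36 in HSCs, with HSC array medians of 0.89, -0.20 and -0.32. In HSCs too 5 of 7 had a positive mean (14632 of 29134 features did), so the higher values are not particular to MPPs. A second probe of Cdkn2a, at 1.37, 0.54 and 1.17, was well above background in KO on 3 of 3 arrays and in WT on none.

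Transcription factors of the B lineage stood at the top of the comparison. Among features positive on 3 of 3 arrays, Ebf1, the factor that specifies the B lineage, had the largest mean, and Pax5, which commits cells to it, was the fourth. Ebf1 (probe at chr11:44818438-44818497, mm9) had ratios of 3.39, 5.84 and 6.38. Its mean was 5.20 (SE 0.65; 36.8-fold; unadjusted p = 0.00014 and adjusted p = 0.695, limma). The WT channel was low and even, at levels of 7.23, 6.89 and 7.16, and the KO channel stood at 12.10, 13.72 and 14.51 on its own dye's scale.

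Pax5 (chr4:44658421-44658480) had ratios of 3.24, 5.36 and 3.13, a mean of 3.91 (SE 0.46). A second probe of Pax5 was lower in size but positive on every array, at 1.04, 1.56 and 3.09. Lef1, a Wnt effector needed for growth of early B cells, had 1.58, 2.85 and 4.89 (mean 3.104, SE 0.58), and 0.76, 0.94 and 1.45 on its second probe. Pou2af1, a coactivator of immunoglobulin transcription, had 2.11 and 2.24 on MPP 2 and MPP 3 but -0.32 on MPP 1. Irf8, a factor shared with myeloid cells, stood at 0.60, 3.31 and 0.45, so that its mean of 1.45 (SE 0.66) rests on MPP 2. The factors that act before Ebf1 had smaller ratios of both signs. Foxo1 had 0.82, 0.93 and 1.04, with a second probe of both signs (1.98, -2.91 and 2.01). Tcf3, which encodes E2A, had -0.23, -0.34 and -1.80, and its other probe a mean of 0.06. Ikzf1, which encodes Ikaros, had 0.38, -0.68 and -0.93, while its other probes had positive means of 0.94 and 0.34.

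Across the list, 9 of 12 measured factors of 13 had a positive mean (50.6% of all features did), 6 were positive on 3 of 3 arrays and 1 negative on 3 of 3, beside 14.8% and 14.2% of all features. At unadjusted p under 0.05, 4 were higher and 0 lower (2.49% and 2.62% of all features were). The list's median was 0.74, with array medians of 0.49, 0.50 and 0.77, beside 0.01 over all features. In HSCs the median was 0.02.

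Genes of the pre-B cell receptor and the B cell surface were higher in the KO channel on the same arrays. Igll1 and Vpreb1, the lambda5 and VpreB chains of the surrogate light chain that stands in for the light chain before it is assembled, had means of 4.03 (SE 0.57) and 4.33 (SE 0.87). Igll1 (chr16:16861104-16861163) had ratios of 2.44, 5.15 and 4.50, and Vpreb1 (chr16:16868559-16868618) of 1.60, 4.90 and 6.49. These neighbouring genes were higher on 3 of 3 arrays, least on MPP 1. Vpreb2 had 0.77, 3.21 and 4.85; since Vpreb1 and Vpreb2 are near-identical copies, their signals may be shared and their separate values are uncertain. Vpreb3, which assists assembly of the receptor, had 0.63, 1.59 and 2.23.

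The signalling chains of the receptor were higher too. Cd79a, which encodes Ig-alpha (chr7:25684357-25684614), had 1.18, 2.56 and 5.18 (mean 2.98, SE 0.76), and its second probe 1.81, 3.09 and 3.26. Its partner Cd79b, Ig-beta, was at 0.01 on MPP 1 and at 1.24 and 1.49 on the others. Blk, a Src family kinase of B cells, followed the same order at 0.10, 1.11 and 1.58. The kinase Btk was the 1 member negative on 3 of 3 arrays, at -0.32, -0.35 and -0.34, although its other probe had a mean of 0.28. Cd24a, a surface glycoprotein of early B cells, stood at 0.26, 0.23 and 0.90. Genes of more mature B cells had both signs: Cd22, an inhibitory receptor, had -0.81, 0.15 and 0.68, Cr2, the complement receptor, -0.41, 0.59 and 1.16, and Fcer2a, the low-affinity IgE receptor, -0.35, -0.32 and 0.58. Of 17 measured members of 20, 13 had a positive mean (76.5%, against 50.6% of all features). On 3 of 3 arrays 9 were positive and 1 negative, 52.9% and 5.88% against 14.8% and 14.2% of all features, and at unadjusted p under 0.05, 7 were higher and 0 lower, beside 2.49% and 2.62%. The median was 0.46, with array medians of 0.07, 0.88 and 1.49, and -0.12 in HSCs. It moved to 0.88 without MPP 1, 0.75 without MPP 2, 0.24 without MPP 3 and 1.08 with median centring.

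**Figure D1:**
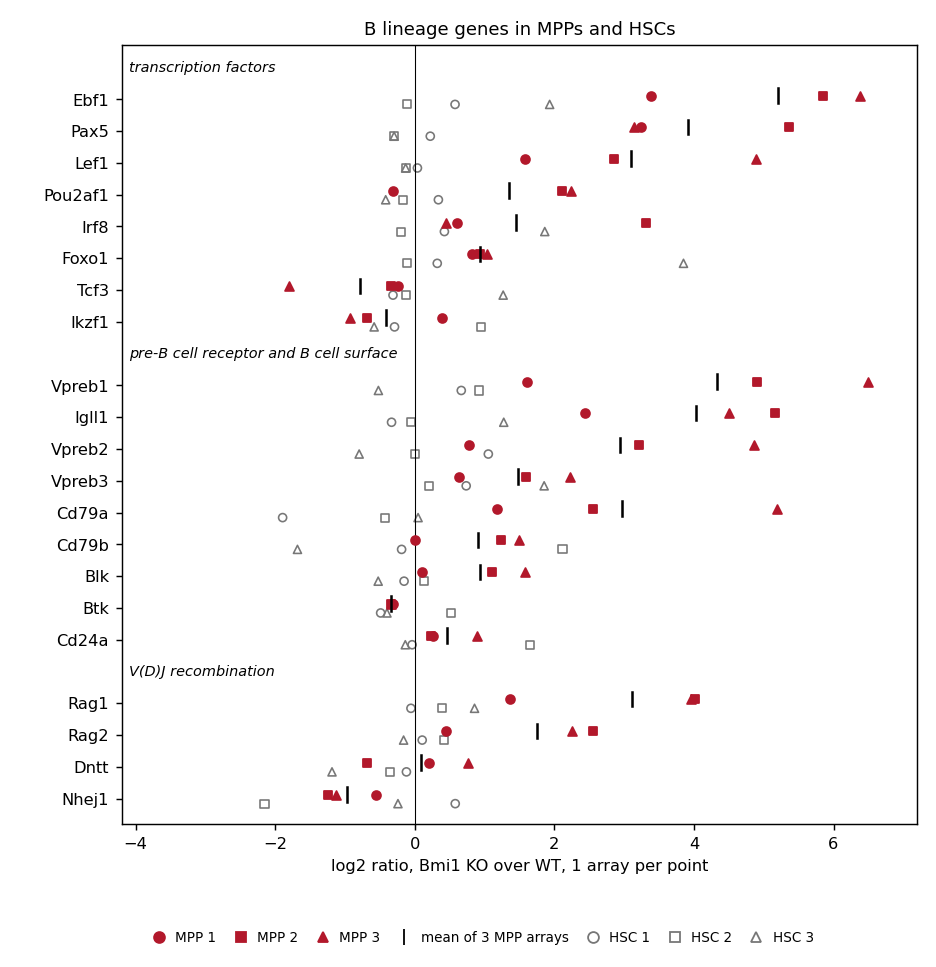
Log2 ratios of Bmi1 KO over WT (horizontal axis) for 21 genes of the B lineage, 1 point per array: filled red symbols are the 3 MPP arrays, open grey symbols the 3 HSC arrays, and black bars the mean of the MPP arrays. Ebf1, Pax5, Lef1, Igll1, Vpreb1, Cd79a, Rag1 and Rag2 have all MPP points above all HSC points, while Tcf3, Btk and Nhej1 lie below 0 on the 3 MPP arrays.

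Promoter windows are shown for 3 genes of the receptor that were higher on 3 of 3 arrays, Igll1, Vpreb1 and Cd79a, because they are classic targets of Ebf1 and E2A. Each runs over the 250 bases before the start, 5′ to 3′ on the gene's strand, from RefSeq on GRCm38.p6, a later build than that of the probe positions: chr16:16863986-16864235 for Igll1 (minus strand), chr16:16869256-16869505 for Vpreb1 (minus strand) and chr7:24897247-24897496 for Cd79a (plus strand). Capitals mark matches to CCCNNGGG, the core of an Ebf1 site, and to CAGGTG on either strand (CACCTG when read on the other one), an E-box bound by E2A.
Igll1: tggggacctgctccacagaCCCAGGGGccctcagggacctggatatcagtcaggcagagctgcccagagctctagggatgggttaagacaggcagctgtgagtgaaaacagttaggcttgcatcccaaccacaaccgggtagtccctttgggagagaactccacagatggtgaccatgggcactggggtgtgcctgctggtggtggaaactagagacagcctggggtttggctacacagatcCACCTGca
Vpreb1: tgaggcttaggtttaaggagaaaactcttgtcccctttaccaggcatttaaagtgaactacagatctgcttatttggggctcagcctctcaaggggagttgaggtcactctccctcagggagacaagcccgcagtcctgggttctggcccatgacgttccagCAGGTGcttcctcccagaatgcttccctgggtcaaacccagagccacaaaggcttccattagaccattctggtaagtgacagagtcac
Cd79a: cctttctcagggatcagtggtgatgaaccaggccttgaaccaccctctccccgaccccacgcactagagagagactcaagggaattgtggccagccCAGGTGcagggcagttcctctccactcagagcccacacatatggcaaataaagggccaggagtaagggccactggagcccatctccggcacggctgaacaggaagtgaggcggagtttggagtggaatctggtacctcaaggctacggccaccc
Of 15 windows of 11 B lineage genes, counting each start, 1 held CCCNNGGG, that of Igll1, and 5 held CAGGTG on either strand, those of Igll1, Vpreb1, Vpreb2, Cd79a and Rag1. Among 32851 windows of this length over all genes the shares were 11.8% and 17.2%. A match describes letters in this window only.

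The recombinase that cuts immunoglobulin genes was higher in KO MPPs, and the factors that rejoin the ends had smaller ratios of both signs. Rag1, its catalytic subunit (chr2:101478813-101478872), had ratios of 1.37, 4.02 and 3.95 (mean 3.11, SE 0.55), and a second probe 2.50, 1.45 and 3.56. Rag2, its partner (chr2:101470723-101470782), had 0.45, 2.55 and 2.25 (mean 1.75, SE 0.43). A second probe of Rag2 gave smaller ratios of 0.36, 0.53 and 0.35 (mean 0.41), with KO well above background on 3 of 3 arrays and WT on none. Dntt, the terminal transferase that adds bases at the joints and is already on in lymphoid-primed progenitors, had 0.20, -0.68 and 0.77, so the arrays spread to both sides of 0. Nhej1, an end-joining factor, was lower at -0.55, -1.24 and -1.12. The Ku subunits Xrcc5 and Xrcc6 were higher by less, with ratios of 0.35, 1.14 and 0.39 and of 0.58, 0.33 and 0.57, and Prkdc, the kinase they recruit, had 0.51, -0.88 and -0.03. Of 12 members 9 had a positive mean (75.0%, against 50.6% of all features). On 3 of 3 arrays 5 were positive and 1 negative, beside 14.8% and 14.2% of all features. At unadjusted p under 0.05, 2 were higher and 0 lower, beside 2.49% and 2.62%. The list median was 0.34, against 0.06 in HSCs; it was 0.57 without MPP 1, 0.21 without MPP 3 and 0.85 with median centring.

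Taking the 3 B lineage lists as 1 group, 41 of 45 genes were measured. Of 44 features with a mean at least 4-fold higher and 3 positive arrays (0.151% of all), 9 were among these 41, and of the 4 highest means all belonged to them. None of the 41 was among the features at least 4-fold lower on 3 of 3 arrays (0.254% of all). Of the 41, 24 had a lower ratio on MPP 1 than on MPP 2 and MPP 3, against 34.0% of all features. On MPP 2 and MPP 3 alone, 26 of 41 were positive on both, 63.4% against 31.2% of all features. In bulk RNA, more cells of a type and more RNA per cell cannot be told apart, so these ratios do not say how many sorted cells carried the transcripts.

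For most of these genes the ratio was smaller in HSCs. The difference between the populations is free of a dye effect particular to a probe only where that effect is equal in both. It is also partly confounded with slide row, since MPP 2 and MPP 3 lay in another row than the HSC arrays. The MPP ratio exceeded the HSC ratio by 4.41 (SE 0.92) for Ebf1, 4.04 (SE 0.66) for Pax5, 3.98 (SE 1.23) for Vpreb1, 3.73 (SE 1.08) for Cd79a and 2.72 (SE 0.78) for Rag1. For 9 of the 41 genes the 3 MPP ratios all lay above the 3 HSC ratios (3.81% of all features), and for 0 all below (4.29%). They included Ebf1, Pax5, Lef1, Igll1, Vpreb1, Cd79a, Rag1 and Rag2. With limma 0 of 29134 features passed for the difference (0.00%, smallest adjusted p 0.964). Of the 29134, 1176 had an unadjusted p under 0.05, fewer than the 1487 in MPPs alone. The HSC ratios themselves were spread around 0, such as -0.33, -0.06 and 1.27 for Igll1 and 0.58, -0.11 and 1.93 for Ebf1.

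Genes that mark HSCs were lower in the KO channel of MPPs, mostly on MPP 2 and MPP 3. Of 24 measured HSC surface and marker genes, 4 had a positive mean (16.7%, against 50.6% of all features). Tek, the angiopoietin receptor, had ratios of -0.10, -1.78 and -2.03 (mean -1.30, SE 0.57). Cd9, a tetraspanin, had 0.07, -1.12 and -1.77, and Ifitm3, a membrane protein that restricts viruses, -0.09, -0.95 and -1.63. MPP 1 stood near 0 for each of these genes. Ly6a, which encodes Sca-1, was lower on all 3 arrays, at -0.63, -0.92 and -1.42, and so was the sulfotransferase Sult1a1, at -0.63, -0.06 and -0.57, with a second probe at -0.82, -0.75 and -0.99. On 3 of 3 arrays 8 markers were negative and 1 positive, 33.3% and 4.17% against 14.2% and 14.8% of all features. On MPP 2 and MPP 3 alone, 14 of 24 were negative on both, 58.3% against 29.9%. The median was -0.43, with array medians of 0.04, -0.29 and -0.80; it was -0.68 without MPP 1, -0.21 without MPP 3 and -0.07 with median centring. At unadjusted p under 0.05, 2 were lower and 0 higher, beside 2.62% and 2.49% of all features. In HSCs the median was -0.17, with array medians of -0.26, -0.01 and -0.33. There 8 of 24 had a positive mean, against 14632 of 29134 features, so the lower values are not particular to MPPs.

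Transcription factors of stem cells were divided. Fli1, an Ets factor, had ratios of -0.10, -2.55 and -2.08 (mean -1.57, SE 0.48), Gata2, a zinc finger factor of stem and mast cells, -0.06, -0.98 and -0.90, and Hlf, a bZIP factor of HSCs, -0.23, -0.44 and -0.56. Prdm16, a zinc finger factor needed by HSCs, had ratios of -0.95, 0.07 and -2.05, so MPP 2 did not show a lower value. It was above background in WT on 2 of 3 arrays and in KO on none, and by the group means it was at least 1.71-fold lower in KO, taking as the bound the lowest signal still above background. On the other side, Hmga2 and Lin28b were higher and are described with the fetal genes. Of 25 measured factors of 26, 10 had a positive mean, and 4 were positive and 8 negative on 3 of 3 arrays, beside 14.8% and 14.2% of all features. The median was -0.29, and it was -0.50 without MPP 1 and -0.09 without MPP 3; with median centring it was 0.12, so its sign depends on the scaling.

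Genes of early lymphoid priming mostly stood on the lower side. Cd27, a receptor of the TNF family found on lymphoid-primed MPPs, was lower on both of its probes, at -0.63, -1.01 and -1.27 on the brighter and -0.68, -1.51 and -1.44 on the other. Flt3 had -0.20, -0.58 and -0.69, with means of -0.29 and 0.09 on 2 other probes; the sign of Flt3 turned with median centring (0.16). Crlf2, a chain of the TSLP receptor, was the 1 member positive on 3 of 3 arrays, at 0.43, 1.70 and 0.42. Il7r, the receptor of the main B cell growth factor in the mouse, had -0.09, 1.23 and 0.01. Of 19 members 5 had a positive mean (26.3%, against 50.6% of all features), and 1 was positive and 6 negative on 3 of 3 arrays (5.26% and 31.6%, against 14.8% and 14.2%). The median was -0.20, with -0.36 without MPP 1, -0.10 without MPP 2 and 0.21 with median centring; in HSCs it was 0.14. Notch2, a receptor that steers lymphoid fate, had -0.61, -2.40 and -2.38 (mean -1.80, SE 0.41; unadjusted p = 0.00401 and adjusted p = 0.965, limma), while its second probe had 0.25, -0.80 and -1.19.

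**Figure D2:**
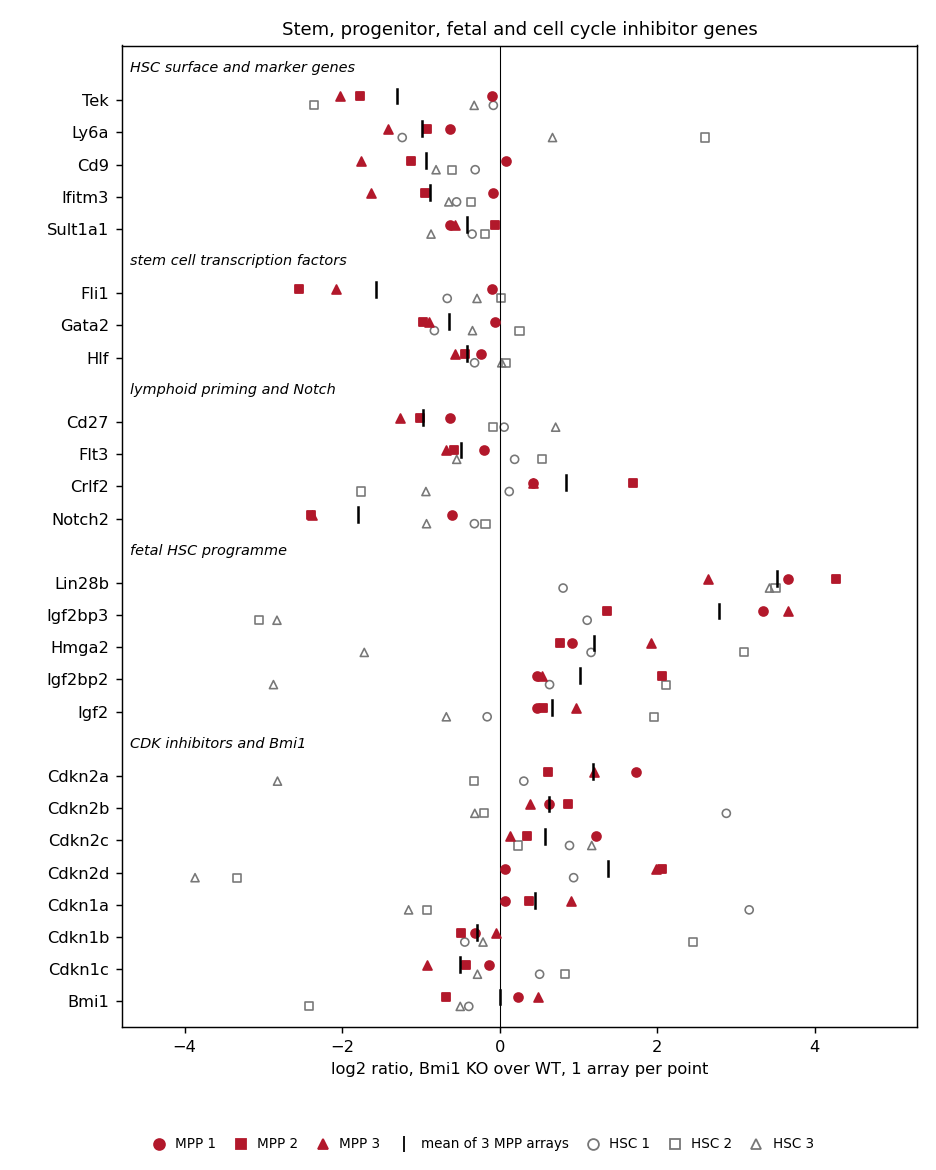
Log2 ratios of Bmi1 KO over WT (horizontal axis) for stem cell, lymphoid priming, fetal and cell cycle inhibitor genes, with the symbols for arrays given in its key and black bars for the mean of the 3 MPP arrays. For Tek, Cd9, Ifitm3, Fli1 and Gata2 the points of MPP 2 and MPP 3 lie below that of MPP 1, which stays near 0; the ratios of Lin28b rest on a WT signal not well above background.

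Part of the programme that marks fetal HSCs, and is normally shut off after birth, was higher in the KO channel. Lin28b, which binds RNA and holds back the let-7 microRNAs (chr10:45140412-45140471), was well above background in KO on 3 of 3 arrays and in WT on none. Among all features 165 were so, against 6 the other way. The MPP ratios of Lin28b were 3.65, 4.27 and 2.64, with a mean of 3.52, or 11.5-fold. That mean takes the dim WT signal as measured, so its size is uncertain. Its ratio was positive on the 3 HSC arrays too. Igf2bp3, an RNA-binding protein of the same fetal programme (chr6:49035710-49035769), had ratios of 3.34, 1.36 and 3.66 in MPPs (mean 2.79, SE 0.88) and of 1.11, -3.05 and -2.83 in HSCs. Its MPP and HSC ratios did not overlap, and WT was above background on 2 of 3 MPP arrays. Hmga2, a chromatin protein and let-7 target, had 0.92, 0.76 and 1.92, with 0.67, 1.12 and 0.41 on a second probe. Igf2bp2, the relative of Igf2bp3 that Hmga2 induces, had 0.47, 2.06 and 0.54 and a mean of 2.86 on its second probe. Igf2, the fetal growth factor, had 0.47, 0.54 and 0.97, with WT above background on 1 of 3 arrays. Of 8 measured genes of 10, 5 were positive and 0 negative on 3 of 3 arrays (14.8% and 14.2% of all features were). At unadjusted p under 0.05, 2 were higher and 0 lower (2.49% and 2.62% of all features were). All 8 were well above background in KO on 3 of 3 arrays, but only 5 in WT. The 5 positive genes include Lin28b, Igf2bp3 and Igf2, which lacked such a WT signal, so the count cannot be set against that of all features. The median was 0.84, but -0.05 over the members well above background in both channels on all 3 arrays, since that filter removes Lin28b, Igf2bp3 and Igf2.

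Heat shock genes and chaperones, which fold new and damaged proteins, were higher in KO MPPs. Hsf1, the factor that induces them, had ratios of 1.38, 0.27 and 1.66, with WT above background on 1 of 3 arrays. Hspa1a, the inducible Hsp70, had 2.59, 0.21 and 1.38, its co-chaperone Dnajb1 0.74, 2.94 and 2.04, and Hspa8, the constitutive Hsp70, 0.73, 0.37 and 1.17. The largest of the 3 ratios came from MPP 1 for Hspa1a, MPP 2 for Dnajb1 and MPP 3 for Hspa8. The chaperonin subunits Cct8 and Cct4, which fold actin and tubulin, had narrower ratios of 0.45, 0.66 and 1.36 and of 0.58, 0.87 and 0.50. In the endoplasmic reticulum, Hspa5, the chaperone BiP, had 0.68, 0.80 and 0.84, and Hyou1, another chaperone there, 1.69, 1.43 and 0.57, against -1.03, -1.90 and -1.38 for Hyou1 in HSCs. Of 21 measured heat shock and chaperone genes of 23, 17 had a positive mean (81.0%, against 50.6% of all features). On 3 of 3 arrays 11 were positive and 2 negative, 52.4% and 9.52% against 14.8% and 14.2%, and at unadjusted p under 0.05, 5 were higher and 0 lower, beside 2.49% and 2.62% of all features. The median was 0.51, with array medians of 0.45, 0.25 and 0.79, against 0.19 in HSCs.

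The lists of cytokine and growth factor signalling did not stand higher as a whole. A positive mean was found for 6 of 17 genes of signalling through Stat5 and 6 of 14 of the TGF-beta pathway. Of all features 50.6% had one, and the medians of these lists were -0.21 and -0.19. Their members named here had ratios of both signs. Cish, a feedback inhibitor induced by Stat5, had 1.29, 1.66 and 2.73, with WT above background on 1 of 3 arrays. Socs2, another such inhibitor, had 1.13, 5.10 and 4.26 on its brightest probe, but 3 other probes had means of 0.05, 0.06 and 0.13, so the gene has no settled direction. Pim1, a kinase that is also a Stat5 target, was on the lower side at -0.13, -0.91 and -1.14, and at a mean of 0.17 with median centring. Tgfbr2, the type II receptor for TGF-beta, had an even 1.02, 0.79 and 1.12, though its other probe had a mean of -0.48, and Smad3, which carries its signal, had 0.79, 0.89 and 0.65, with a mean of 0.02 on its other probe. Pmaip1, which encodes the apoptosis inducer Noxa, had 1.99, 3.37 and 0.97. Among 24 p53 pathway genes 9 were positive and 2 negative on 3 of 3 arrays, 37.5% and 8.33% against 14.8% and 14.2% of all features, and the median was 0.06.

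**Figure D3:**
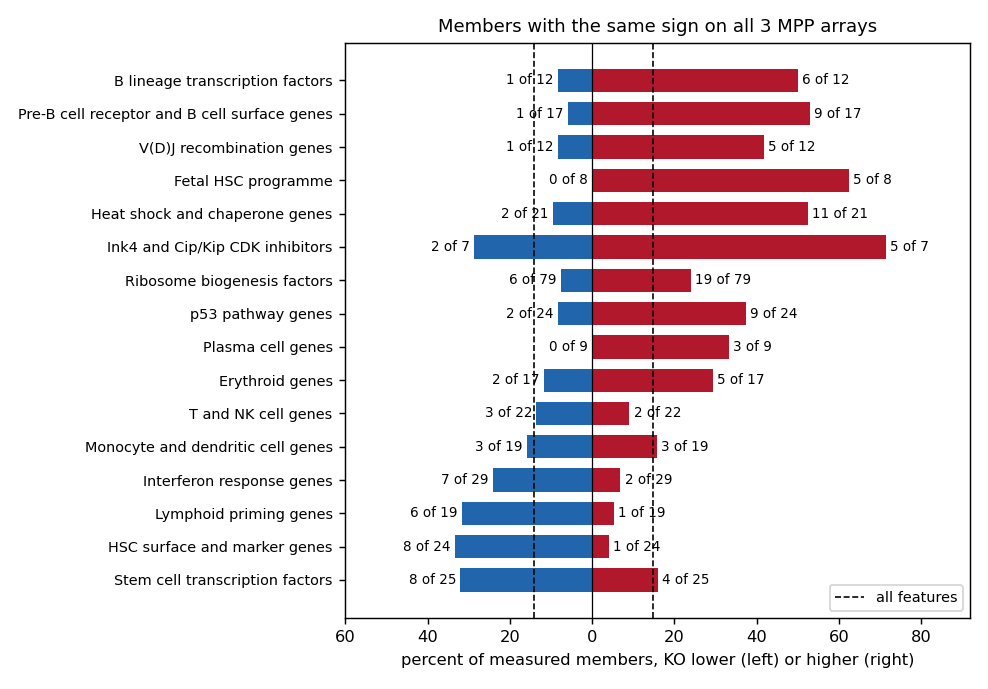
Percent of the measured members of 16 gene lists whose ratio was positive (red, to the right) or negative (blue, to the left) on all 3 MPP arrays, with the counts beside the bars and dashed lines for all features (14.8% and 14.2%). The B lineage, fetal and heat shock lists extend mainly to the right, and the HSC marker, stem cell factor, lymphoid priming and interferon lists mainly to the left. The CDK inhibitor list passes the dashed lines on both sides, at 71.4% and 28.6%. The p53, plasma cell, erythroid and ribosome biogenesis lists also pass the line on the right.

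Markers of other blood cells were examined for a shift of the same kind. Over all features 50.6% had a positive mean in MPPs, the share to set beside each count of positive genes below. Of 17 erythroid genes 9 had a positive mean, at a median of 0.04, but the arrays differed, with medians of -0.56, 0.31 and 0.91. On MPP 2 and MPP 3 alone 9 of 17 were positive on both (52.9%, against 31.2% of all features), and 11 of 17 had their lowest ratio on MPP 1 (34.0% of all features had). The array medians were thus in the same order as those of the pre-B cell receptor list. Slc4a1, the anion exchanger of red cells, had 2.66, 3.67 and 1.91, Tfrc, the transferrin receptor, 0.45, 1.08 and 2.67, and Hba-a1, alpha globin, 0.71, 6.31 and 3.84. Of T and NK cell genes 9 of 22 were positive, at a median of -0.09, and Nkg7, a granule protein of cytotoxic cells, was lower at -0.38, -0.73 and -1.60, with -0.86, -1.95 and -2.86 on a second probe. Monocyte and dendritic cell genes had a median of -0.01. Klf4, a factor of monocytes that also belongs to the early response genes, stood at 3.09, 4.004 and 0.81, and its relative Klf2 at 2.69, 3.59 and 0.55. Of 19 Egr, Nr4a and Klf early response genes 15 had a positive mean, at a median of 0.50 with array medians of 1.03, 0.25 and -0.44. A positive mean in HSCs was found for 17 of 19, against 14632 of 29134 features. Basophil, mast cell and eosinophil genes stood at a median of -0.32, and 5 of 15 were positive. Within them Cma1, a mast cell chymase, was at 3.83, 2.39 and 1.16 and Epx, eosinophil peroxidase, at -0.33, -2.82 and -2.31. Of 14 neutrophil granule genes 7 had a positive mean, at a median of -0.13 with array medians of 0.37, 0.42 and -0.76; among them Ms4a3 had 0.80, 2.32 and 0.41, with WT above background on 2 of 3 arrays. Stromal and endothelial genes had a median of -0.05; Postn, periostin, was at least 1.47-fold higher in KO, with WT above background on none of the arrays. The part of these cells in the B lineage ratios was not tested.

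Plasma cell genes, which belong to the end of the B lineage, split. Of 9 measured genes 7 had a positive mean (50.6% of all features did), at a median of 0.43. On 3 of 3 arrays 3 were positive and 0 negative (14.8% and 14.2% of all features were). The 2 genes with a negative mean were Tnfrsf17 and Jchain. Tnfrsf17, the receptor BCMA, had 0.06, -3.11 and -3.62, and Jchain, which joins secreted IgM, had -1.55, 0.42 and -1.98. Of 29 interferon response genes 2 were positive and 7 negative on 3 of 3 arrays, 6.90% and 24.1% against the same shares of all features, at a median of -0.21. Of 79 ribosome biogenesis factors 19 were positive and 6 negative on 3 of 3 arrays, 24.1% and 7.59%, at a median of 0.16.

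The variable (V) segments of the immunoglobulin light chain were among the most variable features of the MPP arrays. The set below was chosen after its values were seen, so it is described and not tested as a set. An adjusted p given for a single segment comes from the fit over all features. On chromosome 6, probe descriptions named 70 measured kappa V segments of 19 families (chr6:67675577-70653980, mm9). Probes without such a description may be left out. The ratios of these 70 segments had an SD of 1.68, 2.67 and 2.00 on MPP 1, MPP 2 and MPP 3. On the HSC arrays it was 1.08, 0.52 and 1.48. Over all features the SD was 0.55, 1.05 and 0.93 on the MPP arrays and 0.76, 1.26 and 1.14 on the HSC arrays. The segments did not share 1 direction: they grouped by family, and the families differed between arrays. Probe sequences are shown for 4 pairs within families to make plain how alike the measured segments are. They are 5′ to 3′ as on the array, all for genes on the minus strand, and capitals mark the bases that differ within a pair.
Igkv4-73: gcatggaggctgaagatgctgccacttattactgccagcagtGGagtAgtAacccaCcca
Igkv4-78: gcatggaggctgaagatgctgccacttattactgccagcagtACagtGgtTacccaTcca
Igkv4-53: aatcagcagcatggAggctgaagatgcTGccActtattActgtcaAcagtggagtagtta
Igkv4-56: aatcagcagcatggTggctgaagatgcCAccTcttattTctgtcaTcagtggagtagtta
Igkv5-39: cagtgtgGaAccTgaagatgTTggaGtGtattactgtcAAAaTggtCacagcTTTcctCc
Igkv5-37: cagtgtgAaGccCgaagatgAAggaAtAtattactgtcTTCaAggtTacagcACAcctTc
Igkv6-13: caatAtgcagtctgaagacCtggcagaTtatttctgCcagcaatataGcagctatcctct
Igkv6-15: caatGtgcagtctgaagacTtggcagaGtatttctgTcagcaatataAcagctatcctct
The first pair differs at 5 of 60 bases (91.7% identity), the second at 6 (90.0%), the third at 16 (73.3%) and the fourth at 5 (91.7%). Igkv4-73 (chr6:69147579-69147636) had ratios of -2.35, 4.68 and -2.004 and Igkv4-78 (chr6:69009686-69009743) of -2.38, 4.81 and -1.96, which is almost the same value on each array. Igkv4-53 and Igkv4-56 differed on MPP 1, at -2.01 and 0.26. Igkv5-39 (chr6:69850418-69850477) had -2.24, -3.98 and -4.66 while Igkv5-37 had 0.03, -0.53 and -0.29. Igkv6-13 and Igkv6-15 were higher on 3 of 3 arrays, at 2.31, 1.51 and 1.68 and at 2.49, 0.63 and 2.31.

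The family Igkv4 carried the clearest array-specific pattern. All 16 of its measured segments were higher in KO on MPP 2, from 3.12 to 5.80 with a median of 4.21, whereas 15 of 16 were lower on MPP 1 and 15 of 16 on MPP 3, with medians of -2.23 and -1.98. Igkv4-73 had WT levels of 15.02, 9.24 and 14.46 and KO levels of 14.42, 15.08 and 14.21, and Igkv4-78 had 14.85, 8.99 and 14.23 in WT and 14.21, 14.90 and 14.02 in KO, each dye on its own scale. For both probes the WT level was thus far lower on MPP 2 than on the other arrays, while the KO level was about as high on all 3. Igkv1 ran the same way with medians of -1.47, 1.75 and -1.51 over 6 segments. Igkv6 and Igkv8 had medians of 1.79, 1.19 and -1.09 and of 1.37, 1.12 and -1.08. Other families were lower on MPP 2 and MPP 3, such as Igkv5, at -1.49, -2.72 and -4.57 over 4 segments, and Igkv9, at 0.70, -2.98 and -4.30. Igkv14 was lower on each array by its median, at -2.19, -0.54 and -3.65. In HSCs the medians of Igkv4, Igkv5, Igkv9 and Igkv14 lay between -0.47 and 0.16 on every array, while Igkv6 reached 1.66 on HSC 1 and Igkv8 2.19 on HSC 3. The single measured segment of Igkv17 (chr6:67987157-67987216), had -2.62, -5.08 and -5.33 in MPPs, a mean of -4.34 (SE 0.53; adjusted p = 0.695, limma). Across the set, 4 of 70 segments were positive and 15 negative (21.4%) on 3 of 3 arrays, against 14.8% and 14.2% of all features. Close copies can bind the same transcript: 13 of 223 pairs within a family shared 85% or more of at least 50 aligned probe bases, and 12 of these had the same sign on all 3 arrays. Over all pairs the signs were the same on 3 arrays for 57.8% within a family and 22.0% between families. Single segments are therefore uncertain, and segments of a family are not independent measurements.

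**Figure D4:**
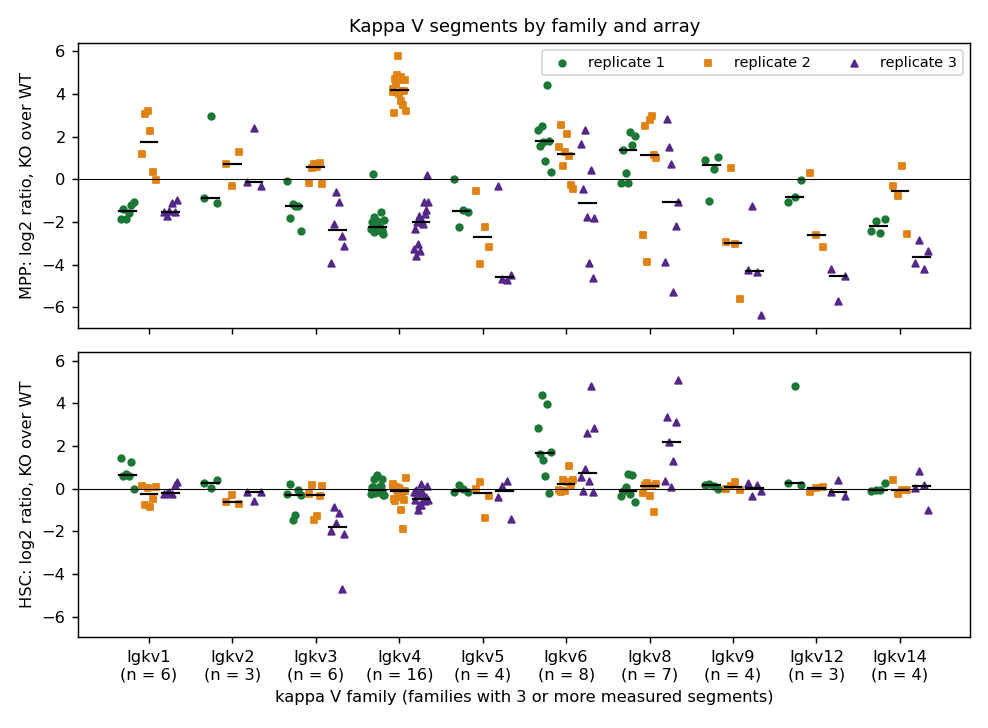
Log2 ratios of Bmi1 KO over WT (vertical axis) for kappa V segments, grouped by family (families with 3 or more segments), on the MPP arrays (top) and the HSC arrays (bottom), 1 point per segment with a bar at each array's median. Igkv4 is high on MPP 2 and low on MPP 1 and MPP 3, while on the HSC arrays its medians lie between -0.47 and -0.09.

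Heavy chain V segments were mostly lower. The set holds the 26 measured segments of 9 families that a probe description names (chr12:115286517-117238485). Other heavy chain probes, known by accession only, may be left out of these counts. Of the 26, 12 were negative (46.2%) and 0 positive on 3 of 3 arrays, against 14.2% and 14.8% of all features. The median was -0.57. That median was 0.10 with median centring, a setting chosen with the set, after the data were seen. Ighv11-2 had -3.16, -0.92 and -5.81 and Ighv3-3 had -4.19, -0.72 and -2.29. Both families that were high on MPP 2 alone, Ighv10 at 4.79 and Ighv15 at 3.21, were measured by 1 segment each.

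Outside the lists, the features with the smallest p and 3 arrays of the same sign included several with little spread. Rnf113a1, a zinc finger protein of the spliceosome, had 1.46, 1.88 and 2.04 (mean 1.79, SE 0.25; adjusted p = 0.959, limma). Lilrb4a, an inhibitory receptor of myeloid cells, had 1.89, 1.53 and 1.88, but its other probe had a mean of 0.00. Cecr2, a bromodomain protein, had 1.56, 3.93 and 3.78, and its 2 other probes had means of 2.31 and 2.09, so the probes of the gene had 1 direction. Smoc1, a matrix protein that binds calcium, had 1.45, 2.35 and 2.20. Mamdc2 had 1.26, 2.90 and 2.16, Tmem156 1.06, 1.83 and 1.63, and Bfsp2, a filament protein of the lens, 1.78, 5.12 and 2.57. Raet1c, a ligand of the receptor NKG2D, had 1.01, 2.38 and 1.81, and Lpar1, a receptor for lysophosphatidic acid, 1.37, 0.94 and 2.06. Luc7l2, a splicing factor, had 0.86, 1.83 and 2.35 on 1 probe and means from -0.14 to 0.03 on 3 others. Nelfcd, a subunit of the complex that pauses RNA polymerase II, had 0.86, 2.01 and 2.24. On the lower side, the noncoding RNA Sox2ot had -0.94, -1.34 and -1.90 and Kdm2a, a histone demethylase, -1.04, -1.84 and -2.48. Ppard had -1.73, -2.23 and -2.55, Fbrs -1.30, -2.21 and -2.40, and Tmbim4 -1.09, -1.98 and -1.28. Wtap had -1.29, -2.72 and -2.22, with means of 0.50 and -0.09 on its other probes. In HSCs Rnf113a1 (0.56, 1.11 and 0.45), Lilrb4a, Mamdc2, Nelfcd and Luc7l2 were positive on 3 of 3 arrays too. Fbrs, Ppard, Kdm2a and Sox2ot were negative on 3 of 3 HSC arrays. For these genes a dye effect particular to the probe cannot be told apart from genotype. Tmem156 had the other sign on every HSC array, and the rest named here had both signs. Among the 15 highest in rank on each side, 4 of the higher and 9 of the lower had names that are only accessions, clones or positions and were counted only; the 9 included Igkv5-39 and Igkv5-45.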

How the data were processed

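Per the labels, total RNA was extracted with Trizol and 10 µg was labelled directly by reverse transcription, WT with Cy3 and Bmi1 KO with Cy5. The version of Agilent Feature Extraction that read the spots was not settled: it is 10.7.3.1 per the file headers and 8.5.1.1 per the submitters' processing notes. The deposited intensity of each spot and of its local background was used, and the deposited marks, scored 0 or 1, for spots well above background, non-uniform or outlying. The deposited log ratio, a log10 of red over green made by that software, and the series table with the same log10 values served as an alternative.

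Mean intensities of 59305 spots that were not controls (55681 probes) were corrected with normexp (offset 50) and loess-normalized within each array in limma 3.58.1 (R 4.3.3). Marked spots had weight 0 in the loess curve and were left out, and replicate spots were averaged. Kept were the 44641 probes with a value on 6 arrays and a signal well above background throughout 1 or more of the 4 groups of 3; the brightest probe stood for a name (29134 features). RefSeq accessions gave current symbols to 27235 probes (48.9%). Levels are log2 signals, quantile-normalized between arrays within each dye. Fits used lmFit and eBayes on 6 arrays with 1 mean per population (6.43 degrees of freedom) and Benjamini-Hochberg adjustment with a threshold of 0.05. With 3 arrays, flipping signs could reach a two-sided permutation p of 0.25 at the lowest. On simulated data with 200 shifted features, 14.5% were recovered at 4-fold and 77.5% at 16-fold in the MPP comparison.

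Members, gene lists and the naming rule were chosen with earlier results of these data known. Genes named were Bmi1, Cdkn2a, Cdkn2b, members of the B lineage, CDK inhibitor and Pcgf lists, up to 6 of any other list by smallest p, genes above background in 1 genotype only, and outside the lists up to 15 per direction by smallest p with the same sign on 3 arrays and both channels above background. Kit, Cd34, Cd48, Slamf1 and Il7r and all V segments were named after their values were seen. The symbol pattern for heavy chain genes was corrected after the data were seen, to leave out an unrelated gene. Some items are not reported here. Where a gene has several probes, the others' values are given only where they differ or add to it.

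Replicate numbers are shared by the HSC and MPP arrays, and deviations of arrays with the same number correlated at -0.07, 0.01 and 0.02. These values cannot decide whether samples were paired, since even MPP 1 correlated at -0.01 with each other MPP array. The numbers were not taken as pairs, and a fit with the number as a block is given below.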

Additional observations from a re-analysis of the deposited data

Results flagged for a closer look

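Of 102 genes named, 4 had ratios of 1 sign on every MPP array and of the other sign on every HSC array, as 549 features (1.88%) did overall. The difference was 2.79 for Cma1 (3.83, 2.39 and 1.16 in MPPs, -0.26, -0.59 and -0.13 in HSCs) and 2.79 for Pcgf1 (0.90, 0.90 and 0.26 against -1.59, -3.60 and -1.11). It was 2.67 for Hyou1 (1.69, 1.43 and 0.57 against -1.03, -1.90 and -1.38) and 1.75 for Tmem156 (1.06, 1.83 and 1.63 against -0.14, -0.04 and -0.54). In the limma test of the difference each had an adjusted p of 0.964, with 3 arrays per population, so none passed.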

How the results depend on the processing

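In both comparisons, KO against WT in MPPs and its difference from HSCs, 0 features passed with limma under every alternative run. Leaving out 1 array gave, at unadjusted p under 0.05, 1295 higher and 1203 lower without MPP 1, 250 and 344 without MPP 2, and 336 and 322 without MPP 3. Median centring of each array, used instead of loess, shifted all features by a median of 0.26, and at unadjusted p under 0.05 it gave 2990 higher and 359 lower features in MPPs, against 725 and 762. Under it the list medians were 1.01 for B lineage factors, 0.85 for V(D)J genes, 0.12 for stem cell factors, 0.21 for lymphoid priming genes, 1.00 for heat shock genes and 0.73 for plasma cell genes. Requiring signal well above background in both channels gave 0.93 for B lineage factors and -0.051 for the fetal list, and Agilent's log ratio gave 1.29 for the latter. Without 1 MPP array the medians ranged from 0.50 to 0.75 for CDK inhibitors and from 0.24 to 0.71 for plasma cell genes. Among 102 named genes, 91 kept their sign in every alternative. Without 1 MPP array Bmi1 ranged from -0.23 to 0.35 and was -0.10 without MPP 1, Dntt ranged from -0.24 to 0.49, Prkdc from -0.46 to 0.24, Cd22 from -0.33 to 0.41, Fcer2a from -0.34 to 0.13 and Il7r from -0.040 to 0.62. With median centring the sign turned for Pcgf2 (0.17), Ikzf1 (0.075), Btk (0.39), Flt3 (0.16), Pim1 (0.17), Prkdc (0.16) and Fcer2a (0.31), as a mean over probes for Ikzf1 (0.29), and with Agilent's log ratio for Fcer2a (0.048). With the replicate number as a block 0 features passed, and 647 were higher and 765 lower at unadjusted p under 0.05. The cause of these shifts was not tested.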
